A study of Caenorhabditis elegans with 4 samples.

Results

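Acetylcholine excites the body wall muscles of Caenorhabditis elegans, and 10 genes for its receptors at the neuromuscular junction and for the proteins that cluster those receptors were followed in whole larvae of 2 genotypes. They were taken by name, after the deposited transcript accessions had been matched to gene symbols and summed per gene. All 10 were among the 41614 genes of the table. Of these, 7 encode receptor subunits (unc-29, unc-38, unc-63, lev-1, lev-8, acr-16 and acr-12) and 3 encode extracellular clustering proteins (lev-10, lev-9 and oig-4).

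The wild type group and the group carrying dve-1(uf171), an allele of the gene for the homeodomain protein DVE-1, had 2 libraries each. All animals were grown at 25 degrees Celsius on E. coli OP50, and about 1200 larvae gave the total RNA of a sample. Samples are labelled L4, which is the last of the larval stages, although their protocols describe a collection of L1 larvae. RNA-seq was reported as FPKM, that is, fragment numbers divided by transcript length and by library size, so levels of different genes can be set side by side per length. The labels do not tell whether the 2 libraries of a genotype are separate cultures, so each p-value refers to library-to-library spread that may be technical.

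At this synapse a muscle cell carries a levamisole-sensitive receptor built from UNC-29, UNC-38, UNC-63, LEV-1 and LEV-8, and a separate nicotine-sensitive receptor made of ACR-16. ACR-12 is a neuronal subunit, known from receptors on cholinergic and GABA motor neurons. The transmembrane protein LEV-10, with CUB domains, and the secreted proteins LEV-9, with complement control domains, and OIG-4, with an immunoglobulin domain, form a scaffold that holds levamisole receptors at the synapse. In RNA from whole animals, fewer cells of a type and less RNA per cell cannot be told apart, and the neuronal and muscle transcripts of a shared subunit are pooled.

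The depth behind the values, estimated from the steps between low FPKM values, was 14080000 to 15280000 fragments per library. dve-1 itself measured 14.19 and 13.87 FPKM in wild type animals, and 22.98 and 21.13 FPKM in mutant animals. This difference did not pass the limma test used below (adjusted p = 0.874), and FPKM values cannot show the allele. Body wall muscle was represented, with all 17 measured markers above 0 in every library, among them the myosin genes myo-3 and unc-54. Of the 11 measured pan-neuronal markers, rab-3 was the exception that was listed at 0, in mutant replicate 1. Mutant replicate 2 had the highest value of all 10 oocyte markers, with a median of 54.6 FPKM against 12.9 to 23.5 FPKM elsewhere. Of 11 measured cuticle collagens, 3 (col-12, col-13 and col-19) were highest in that library, and the summed collagen level there, 11420 FPKM, lay within the 8286 to 12940 FPKM of the others. In mutant replicate 1 the median of 12 measured sperm markers was 214 FPKM, against 398 to 536 FPKM in the other libraries.

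No receptor or clustering gene passed the test for a difference between the genotypes. With limma on log2(FPKM + 1), 0 of 10 members passed at a Benjamini-Hochberg adjusted p under 0.05, and every member had an adjusted p of 0.9995. Over all 14664 genes tested, 0.13% passed. At an unadjusted p under 0.05 there were also 0 of 10 members, against 4.6% of all genes, and the lowest unadjusted p of a member was 0.198, for unc-29. By sign 6 members lay higher and 4 lower in the mutant. Their median log2 fold change was 0.05, beside -0.02 over all tested genes. A p that misses the threshold does not show equal levels, and the intervals below give what the libraries allow.

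**Figure D1:**
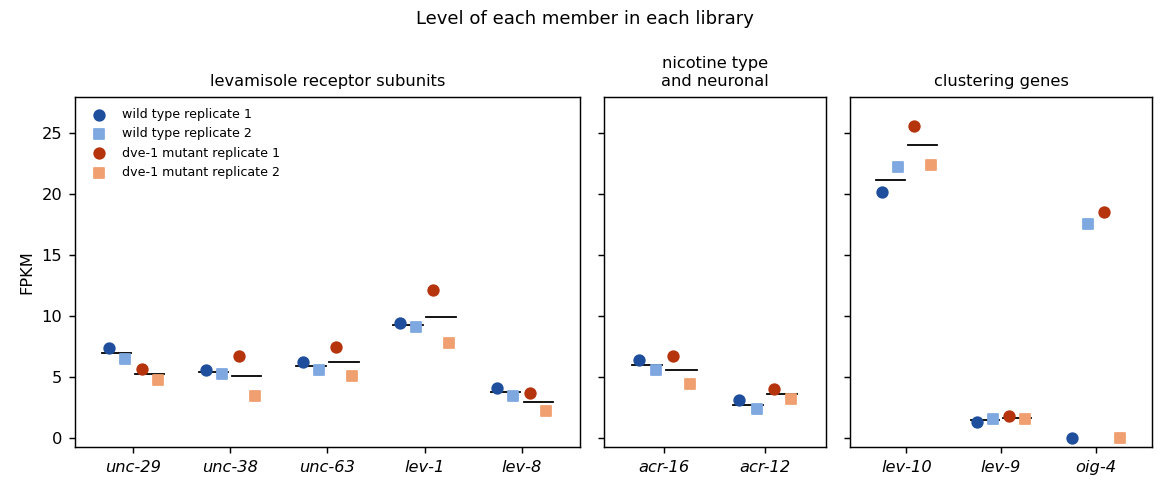
FPKM (vertical axis, linear) of each member (horizontal axis) in the 4 libraries, with circles for replicate 1, squares for replicate 2, and short lines at the mean of each genotype (not drawn for oig-4). lev-10 lies highest at 20.17 to 25.6 FPKM, lev-9 lowest among members above 0 in every library, and oig-4 is at 0 in 1 library of each genotype.

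The levamisole receptor subunits were all expressed at a few FPKM per gene, with lev-1 above the other four in every library and lev-8 below them in every library. unc-29, which encodes a non-alpha subunit that the receptor cannot do without, measured 7.42 and 6.50 FPKM in wild type animals, and 5.69 and 4.78 FPKM in mutant animals. The gene lies on chromosome I (8897632 to 8901435, minus strand, WBcel235, as for all positions here). Both mutant libraries were below both wild type libraries. The means were 6.96 ± 0.648 and 5.24 ± 0.647 FPKM (SD, n = 2), and the log2 fold change was -0.35 (SE 0.23, 95% interval -0.996 to 0.288, limma adjusted p = 0.9995). Leaving out each library in turn kept it between -0.46 and -0.25.

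lev-8 (chromosome X, 11560915 to 11563707, plus strand), which encodes an alpha-type subunit, measured 4.16 and 3.47 FPKM in wild type animals, and 3.75 and 2.23 FPKM in mutant animals. The groups overlapped, with mutant replicate 1 between the wild type libraries and mutant replicate 2 below both. The log2 fold change, -0.29 with an SE of 0.30 and a 95% interval of -1.15 to 0.57, was -0.02 without mutant replicate 2 and -0.57 without mutant replicate 1. About 54 to 107 fragments stood behind each lev-8 value, which by counting alone gives an error of 13.6% at the lowest value.

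unc-38 (chromosome I, 4897620 to 4900974, minus strand) and unc-63 (chromosome I, 5141673 to 5149226, plus strand) encode the alpha subunits that also occur in neuronal receptors. In unc-38 the mutant libraries held both the highest and the lowest value, 6.76 and 3.48 FPKM, around wild type values of 5.63 and 5.27 FPKM. unc-63 showed the same order, with 7.49 and 5.07 FPKM in the mutant and 6.24 and 5.61 FPKM in wild type. Both thus had a larger spread within the mutant (SD 2.32 and 1.71 FPKM) than within wild type (SD 0.259 and 0.444 FPKM). The log2 fold changes were -0.13 (95% interval -1.13 to 0.87) for unc-38 and 0.05 (95% interval -0.72 to 0.83) for unc-63, and both changed sign when 1 library was left out.

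lev-1 (chromosome IV, 13174157 to 13179395, minus strand), the other non-alpha subunit, was the subunit with the most transcript per length. It measured 9.42 and 9.13 FPKM in wild type animals, and 12.16 and 7.80 FPKM in mutant animals, so that the mutant libraries again lay on either side of wild type. The log2 fold change was 0.07 (95% interval -0.74 to 0.87) and turned to -0.22 without mutant replicate 1. All of it came from 1 of the 2 lev-1 accessions, the other being listed at 0 in all 4 libraries.

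Among the muscle and neuronal subunits outside the levamisole receptor, acr-16 (chromosome V, 8561216 to 8564345, plus strand) also had mutant values on either side of wild type. It measured 6.38 and 5.63 FPKM in wild type animals, and 6.79 and 4.42 FPKM in mutant animals, with overlapping groups. The log2 fold change was -0.11 (95% interval -0.91 to 0.70) and 0.16 without mutant replicate 2. Divided by the summed FPKM of the 5 levamisole receptor subunits, a ratio computed after the values had been seen, acr-16 was at 0.194 and 0.188 in wild type and 0.189 and 0.189 in the mutant.

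acr-12 (chromosome X, 13532853 to 13536459, plus strand) was the member with the largest positive log2 fold change. It measured 3.13 and 2.37 FPKM in wild type animals, and 4.04 and 3.24 FPKM in mutant animals, with both mutant libraries above both wild type libraries. The means were 2.75 ± 0.536 and 3.64 ± 0.568 FPKM (SD, n = 2), and the log2 fold change was 0.31 (SE 0.26, 95% interval -0.42 to 1.04, limma adjusted p = 0.9995), with 0.16 to 0.46 when each library was left out. Of the 2 acr-12 accessions, 1 measured 1.64 and 1.00 FPKM in wild type animals, and 1.92 and 2.01 FPKM in mutant animals. The other read 1.49 and 1.37 against 2.12 and 1.22 FPKM, so that its groups overlapped. Tested as single accessions, they had log2 fold changes of 0.37 and 0.12 (limma adjusted p = 0.9999 for both), where 0.0498% of all 20088 accessions tested passed. Relative to the summed levamisole receptor subunits, acr-12 was at 0.0951 and 0.079 in wild type and at 0.113 and 0.139 in the mutant.

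acr-2 and acr-3, whose products join ACR-12 in a receptor of cholinergic motor neurons, were looked at for this reason after their values had been seen. acr-2 measured 3.41 and 1.64 FPKM in wild type animals, and 1.86 and 2.60 FPKM in mutant animals, and acr-3 read 1.02 and 0.825 against 0.926 and 0.763 FPKM. Neither kept the mutant libraries above the wild type libraries, and acr-3 was too low to be tested.

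**Figure D2:**
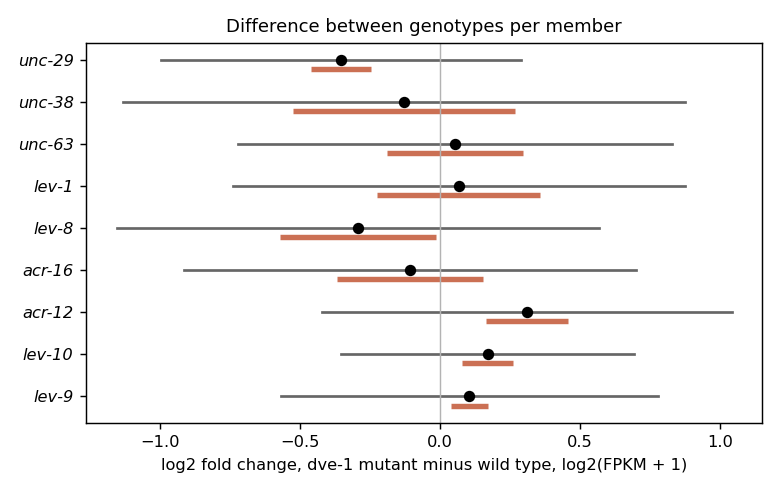
Log2 fold change of 9 members, mutant against wild type on the log2(FPKM + 1) scale (horizontal axis), with the limma estimate as a point, its 95% interval as a grey line, and the range over fits that each leave out 1 library as a thick line. Every interval crosses 0; oig-4 is not drawn because its interval runs from -6.12 to 6.20.

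Of the clustering genes, lev-10 was the most abundant member, at 20.17 and 22.23 FPKM in wild type animals, and 25.60 and 22.40 FPKM in mutant animals. The mutant values lay above the wild type values, but mutant replicate 2 exceeded wild type replicate 2 only slightly. The mutant mean was 1.13 times that of wild type (SD 2.26 and 1.45 FPKM, n = 2 each), and the log2 fold change was 0.17 (SE 0.18, 95% interval -0.35 to 0.69, limma adjusted p = 0.9995). lev-10 lies on chromosome I (14390333 to 14400226, plus strand) and shares 92.0% of its annotated exonic bases with eat-18, a gene for a small protein needed by pharyngeal acetylcholine receptors. eat-18 was listed at 0 in all 4 libraries, so fragments of both genes cannot be told apart in the lev-10 value. Of 3 annotated lev-10 transcripts 2 were in the table, and 1 of these was listed at 0 throughout.

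lev-9 (chromosome X, 6281847 to 6291732, minus strand) was the least abundant member that was above 0 in every library, with 1.38 and 1.61 FPKM in wild type animals, and 1.81 and 1.56 FPKM in mutant animals. The groups overlapped, and the log2 fold change was 0.11 (95% interval -0.57 to 0.78). All of the signal sat on 1 of 3 accessions. lev-9 and lev-10 lay closest of all pairs of members over the 4 libraries. The distance between their log2(FPKM + 1) values, after each gene's mean was subtracted, was 0.0744. The median over the 45 pairs of members was 0.419. Such a distance is small for any genes that vary little, and lev-9 and lev-10 varied least of the members on this scale. The lev-9 level was 0.0685 and 0.0724 times that of lev-10 in wild type and 0.0706 and 0.0697 times in the mutant. Neither the distance nor this ratio accounts for counting error, and the lev-9 values rest on few fragments. Whether lev-9 and lev-10 moved together therefore cannot be read from them. The next closest pair was unc-63 with lev-1, at 0.0948, followed by unc-63 with acr-16, at 0.163.

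oig-4 split the libraries across the genotypes. It was listed at 0 in wild type replicate 1 and mutant replicate 2, whereas wild type replicate 2 and mutant replicate 1 measured 17.56 and 18.57 FPKM. The nonzero values would correspond to about 154 and 152 fragments, so the gap to 0 is larger than a few fragments at this depth. Of the 41614 genes, 47 with a median over 50 FPKM had a 0 in some library. Whether such a 0, in oig-4 or elsewhere, is a failed estimate was not tested. oig-4 lies on chromosome II (7613541 to 7614435, plus strand), and 176 of its 573 exonic bases overlap an exon of R07G3.7 on the other strand. R07G3.7 read 68.6 and 65.8 FPKM in the libraries where oig-4 was at 0, and 43.5 and 42.4 FPKM in those where it was not. Its part in the oig-4 values was not tested, and whether the libraries keep the strand is not given in the sources used here. The limma estimate for oig-4, 0.04 with a 95% interval of -6.12 to 6.20, is too wide to place a difference.

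**Figure D3:**
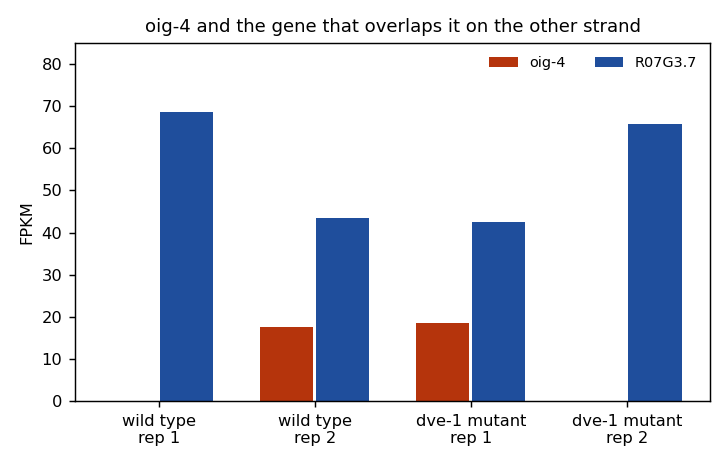
FPKM (vertical axis, from 0) of oig-4 and of R07G3.7, which overlaps it on the opposite strand, in each of the 4 libraries (horizontal axis). R07G3.7 is at 68.6 and 65.8 FPKM in the libraries where oig-4 is listed at 0, and at 43.5 and 42.4 FPKM where oig-4 reads 17.56 and 18.57 FPKM. The oocyte markers (not drawn) have the same order as R07G3.7 within each genotype.

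For 3 of 10 members the genotypes did not overlap: acr-12 and lev-10 with the mutant higher and unc-29 with the mutant lower. Over all tested genes 28.1% had groups that did not overlap, 11.9% with the mutant higher and 16.2% with the mutant lower, so the members' count lay near the background.

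Other members also overlap a gene on the opposite strand. The exons of acr-16 and unc-38 share 43 and 22 bases with F25G6.8 and F21F3.4, and no value of F21F3.4 was used here. Those of lev-8 and lev-9 share 83 and 203 bases with the non-coding genes linc-33 and T07H6.7, both listed at 0 in all 4 libraries. F25G6.8 was abundant, at 333 to 358 FPKM, and its part in the acr-16 values was not tested.

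In order of mean level over the 4 libraries, the members ran from lev-10 at 22.6 ± 2.24 FPKM (SD, n = 4) through lev-1 at 9.63 ± 1.83 and unc-29, unc-63, acr-16 and unc-38 between 6.10 and 5.28 FPKM, to lev-8 at 3.40 ± 0.829, acr-12 at 3.19 ± 0.685 and lev-9 at 1.59 ± 0.175 FPKM. oig-4 has no place in this order because of its zeros. lev-10 and lev-1 each lay above the next of these genes in every library without overlap, and so did acr-12 above lev-9. In both wild type libraries unc-29 lay above acr-16 and acr-16 above unc-63, whereas unc-63 lay above both unc-29 and acr-16 in both mutant libraries, and these orders were not tested. unc-38 was below acr-16 and above lev-8 in all 4 libraries although their ranges overlapped, and lev-8 and acr-12 changed places. Among tested protein-coding genes, lev-10 lay just above the middle in mean level, lev-1 above 29.8% of genes and lev-9 above 4.9%.

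The makeup of the levamisole receptor transcripts was then compared. unc-29 contributed 22.6% and 21.7% of the summed FPKM of the 5 subunits in wild type and 15.9% and 20.5% in the mutant. lev-8 gave 12.6% and 11.6% in wild type and 10.5% and 9.56% in the mutant. Both shares were lower in both mutant libraries. lev-1 made up 28.7% and 30.5% in wild type and 33.9% and 33.4% in the mutant, and unc-63 made up 18.99% and 18.72% in wild type and 20.9% and 21.7% in the mutant, both higher in both mutant libraries. The share of unc-38 overlapped, at 17.1% and 17.6% in wild type and 18.8% and 14.9% in the mutant. Shares of a sum are tied to each other, they were computed after the values had been seen, and their differences were not tested. The sum itself was 32.87 and 29.99 FPKM in wild type animals, and 35.9 and 23.4 FPKM in mutant animals, so mutant replicate 1 was the highest library and mutant replicate 2 the lowest.

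**Figure D4:**
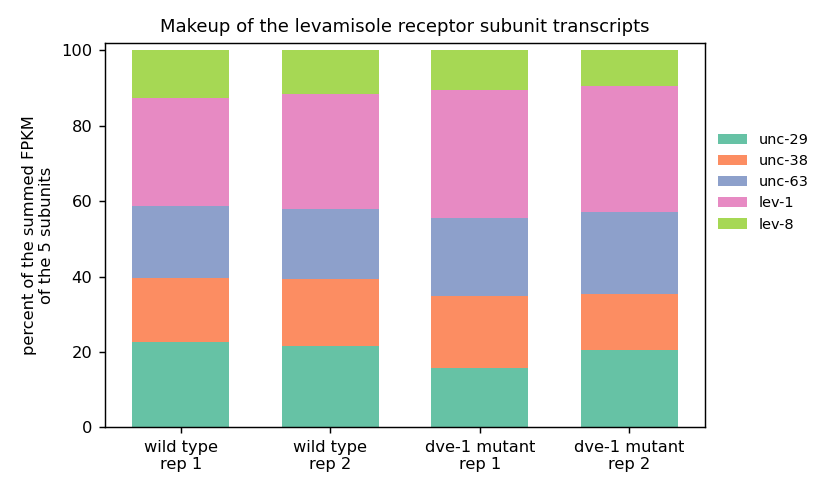
Percent of the summed FPKM of the 5 levamisole receptor subunits (vertical axis, from 0) contributed by each subunit in each library (horizontal axis). The unc-29 share is 22.6% and 21.7% in wild type and 15.9% and 20.5% in the mutant, and the lev-1 share is 28.7% and 30.5% against 33.9% and 33.4%.

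The order of the libraries within each genotype was shared among the subunits. All 7 were higher in replicate 1 than in replicate 2 in wild type and again in the mutant, which held for 20.7% of all tested genes. The gap was 1.03-fold to 1.32-fold in wild type, smallest for lev-1 and largest for acr-12. In the mutant it was 1.19-fold to 1.94-fold, smallest for unc-29 and largest for unc-38. Of the 7 subunits 6 had their lowest value in mutant replicate 2, the exception being acr-12, against 25.4% of all tested genes.

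The clustering genes shared this pattern in the mutant but not in wild type. lev-10, lev-9 and oig-4 were each higher in mutant replicate 1 than in mutant replicate 2. That brings the count to 10 of 10 members, against 46.5% of all tested genes. Each was lower, however, in wild type replicate 1 than in wild type replicate 2, whereas 63.2% of all tested genes were higher there. For oig-4 both orders rest on a value listed at 0, and whether that is a failed estimate was not tested. Replicates carry no order, and these counts describe 4 libraries. Among other measured genes the mutant order held for 8 of 8 GABA, 6 of 8 cholinergic and 8 of 11 pan-neuronal markers. It held for 9 of 11 synapse organisers of the muscle, 7 of 17 other receptor subunits and 4 of 8 assembly and trafficking genes. It held for 1 of 12 sperm and 0 of 10 oocyte markers. Body wall muscle markers were higher in mutant replicate 1 than in mutant replicate 2 for 16 of 17 measured genes. They were higher in wild type replicate 1 than in wild type replicate 2 for 6 of 17, against 63.2% of all tested genes. Their summed level was 14870 and 16480 FPKM in wild type animals, and 15640 and 14310 FPKM in mutant animals, and their part in the members' values was not tested.

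**Figure D5:**
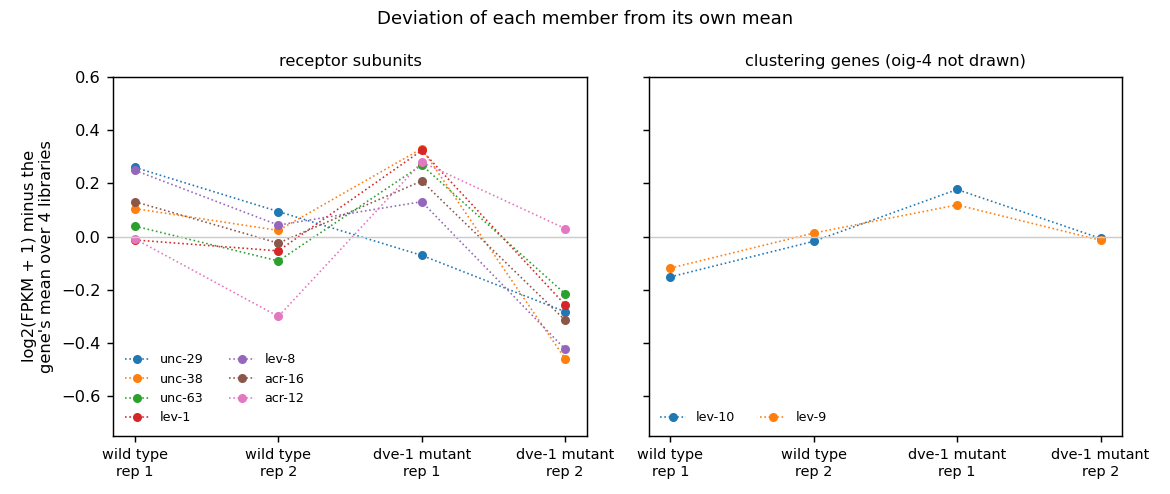
Log2(FPKM + 1) of each member except oig-4 minus the gene's own mean over the 4 libraries (vertical axis) in each library (horizontal axis). Dotted lines only join the points of 1 gene. The subunits other than acr-12 lie lowest in mutant replicate 2, and all but unc-29 and lev-8 lie highest in mutant replicate 1.

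Markers of the neurons at this synapse had no gene past the threshold either. Pan-neuronal markers were lower in the mutant by sign for 9 of 11 tested genes (median log2 fold change -0.14), against 53.8% of all tested genes. Groups did not overlap for 6 of the 11, all with the mutant lower, against 16.2% of all tested genes in that direction. Among the 6 was rab-3, listed at 0 in mutant replicate 1, and whether that is a failed estimate was not tested. Some gaps were small, as in unc-104 (10.93 and 9.81 FPKM in wild type, 9.35 and 9.61 FPKM in the mutant). rgef-1 read 4.97 and 5.35 against 4.93 and 4.18 FPKM. The pan-neuronal list had summed levels of 309.4 and 305.1 FPKM in wild type animals, and 303.5 and 279.1 FPKM in mutant animals. GABA motor neuron markers had a median of -0.09 over 8 genes and cholinergic motor neuron markers -0.04 over 8, with 0 called in each list by limma. Groups did not overlap for 4 of the 8 GABA markers, 3 with the mutant lower. The same held for 3 of the 8 cholinergic markers, 2 with the mutant lower. Over all tested genes these shares were 28.1% in either direction and 16.2% with the mutant lower. At an unadjusted limma p under 0.05 lay 0 of 11 pan-neuronal, 1 of 8 GABA and 0 of 8 cholinergic markers, against 4.6% of all tested genes.

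The rest of the acetylcholine receptor family was measured for 17 of 22 listed genes, and 14 were abundant enough to be tested. By limma 0 of 14 were called, with 1 at an unadjusted p under 0.05, against 0.13% and 4.6% of all tested genes. By sign 7 lay higher and 7 lower (median log2 fold change 0.03). The 1 gene at an unadjusted p under 0.05 was acr-20, listed at 0 in wild type replicates 1 and 2. It measured 2.46 and 1.73 FPKM in mutant animals (limma adjusted p = 0.358). The value rests on 1 of 3 annotated acr-20 transcripts, and no fold is given against a group at 0. acr-25 measured 4.42 and 3.12 FPKM in wild type animals, and 4.93 and 5.69 FPKM in mutant animals (log2 fold change 0.41, 95% interval -0.33 to 1.16). acr-11 read 1.90 and 1.85 against 2.16 and 2.97 FPKM, and acr-17 read 1.63 and 1.94 against 0.727 and 1.58 FPKM. Groups did not overlap for 6 of the 14, against the 28.1% of all tested genes given above.

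Genes for receptor assembly and trafficking covered a wide range of levels. Of 8 measured, 6 lay above every subunit in each library, whereas molo-1 read 4.18 to 5.69 FPKM and eat-18 was listed at 0. unc-50, a Golgi protein needed for levamisole receptors, measured 118.7 and 109.7 FPKM in wild type animals, and 105.1 and 108.0 FPKM in mutant animals (log2 fold change -0.10, 95% interval -0.48 to 0.29). ric-3, an endoplasmic reticulum chaperone of acetylcholine receptors, read 20.2 and 17.4 against 17.9 and 16.7 FPKM. nra-2 and nra-4, which control which subunits leave the endoplasmic reticulum, had log2 fold changes of 0.08 and -0.12. Of 7 tested genes in the list 0 were called by limma and 0 lay at an unadjusted p under 0.05, with a median of -0.05. Over all tested genes these shares were 0.13% and 4.6%, so such counts say little about the list.

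Organisers of the muscle synapse gave 0 of 11 called by limma and 0 at an unadjusted p under 0.05, against 0.13% and 4.6% of all tested genes. Their median log2 fold change was 0.01. madd-4, which motor neurons secrete to position receptors on muscle, measured 10.83 and 10.85 FPKM in wild type animals, and 10.25 and 9.10 FPKM in mutant animals (log2 fold change -0.15, 95% interval -0.72 to 0.41). The neuroligin gene nlg-1 read 13.9 and 10.6 against 14.6 and 13.04 FPKM, with overlapping groups. cwn-2, a Wnt ligand that acts on ACR-16 delivery, read 5.85 and 6.15 against 9.29 and 5.66 FPKM, so that mutant replicate 1 alone stood out. rsu-1, a muscle protein that limits receptor clusters outside the synapse, had wild type values of 128.7 and 132.3 FPKM, both above the mutant values of 127.6 and 120.2 FPKM (log2 fold change -0.08, 95% interval -0.45 to 0.30).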

How the data were processed

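The deposited table holds 52491 RefSeq accessions with 1 value for each library. The header states no unit. These values were taken to be FPKM made by the authors, since they are not whole and, per the submitters' processing notes, TopHat2 and Cufflinks were used with ce11 (no versions or settings given). Accessions were matched to RefSeq's WBcel235 annotation (ce11 coordinates), ignoring version numbers. Matches were found for 47645 (90.8%), and their FPKM were summed by gene. Positions and transcript lengths are from Ensembl release 115.

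Genotypes were compared with limma (3.58.1, R 4.3.3; trend on) after a log2(FPKM + 1) transform. A gene was tested if 2 or more libraries reached 1 FPKM. Tests were two-sided, and Benjamini-Hochberg adjustment covered every tested gene. A count model was not applicable to FPKM, and fold changes of low genes are understated on this scale. Degrees of freedom after moderation were 3.84. The fit was tested on simulated data. Tables were made in Python 3.11.15 (pandas 2.3.3).

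To estimate depth, 1509 single-transcript genes were searched for the step that 1 fragment makes: at the best step, 62.9% to 66.1% of low values came within 0.1 of whole fragments. Any scaling between libraries would change this, and fragment numbers cover counting error only.

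The members, lists and tests were chosen with earlier results of these data known. Named genes were all members and, per pathway list, up to 4 tested genes with the smallest p. Alternatives were limma without the trend, median-centred and quantile-normalized values, other filters, a pseudocount of 0.1, protein-coding genes only, a replicate block, and each library left out. A crossed pairing and the median without oig-4 were added after the data were seen. The sequences of the members were not used here.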

Additional observations from a re-analysis of the deposited data

How the results depend on the processing

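The count of 0 members called held under every alternative run, with a lowest adjusted p of 0.679. Of 120 single-member values under the alternatives listed in the methods, 7 changed sign, all with 1 library left out. With each library left out in turn, the log2 fold change ran from -0.37 to 0.16 for acr-16, from -0.22 to 0.36 for lev-1, from -0.52 to 0.27 for unc-38, from -0.19 to 0.30 for unc-63 and from -2.11 to 2.18 for oig-4. In these fits the members' median ran from -0.30, without mutant replicate 1, to 0.27, without mutant replicate 2. It was 0.05 without oig-4.

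The counts over all genes, from which the background comes, moved with the settings. Against 19 genes and 10 accessions called, limma without the trend called 86 genes and 113 accessions, no filter on low values 3 and 5, and protein-coding genes only 0 and 1. A mean of at least 1 FPKM left 9 genes and a pseudocount of 0.1 left 10. The replicate block, which adds the replicate number to the fit, called 0 genes, 0 accessions and 0 members, as did each fit without 1 library (0 to 0). In the latter, the lone library of a genotype is assumed to vary like the other group. Same-numbered libraries did not deviate together over all genes (r = -0.193 across 14664 genes, which are not independent). This correlation alone cannot tell whether the numbers pair the libraries. A crossed pairing called 0 genes, 0 accessions and 0 members. The cause was not tested; the block, crossed and left-out fits each have fewer residual degrees of freedom. Values of lev-8, acr-12 and lev-9 rest on the fewest fragments.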

Other observations

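Listing at 0 in 1 library of each genotype, with more than 10 FPKM in the remaining library of each, as seen in oig-4, occurred in 7 of 17970 protein-coding genes. Intestine markers, a tissue outside this synapse, had summed levels of 4842 and 6160 FPKM in wild type animals, and 6852 and 6733 FPKM in mutant animals, an order of libraries unlike that of the receptor subunits.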
